A study of Mus musculus with 13 samples.

Results

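The transcripts described here came from 40 genes that mark the structural cells of the lung, read in RNA-seq libraries of sorted mouse eosinophils. They comprised 21 endothelial genes, 11 epithelial genes and 8 stromal genes. Each was taken by its symbol from a table of 41743 genes, and all 40 were found. The libraries were made from eosinophils of the thymus, spleen and lung, in a study of how eosinophils of the thymus differ from those of other organs. The cells were enriched with Siglec-F beads and then sorted by flow cytometry as CD11b+ Siglec-F+ cells, so a gene of a vessel wall or an airway lining is not one of the sorted cell's own markers. The question put to the 40 genes was whether the 3 classes were high together in the same lung libraries.

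The 13 libraries fell into 5 groups. WT lung, WT thymus and WT spleen had 3 libraries each, from untreated wild-type mice of the C57BL/6N strain. Rag-KO + anti-CD3 had 2 libraries, both of thymic eosinophils from Rag2-/- mice, collected on day 10 after an injection of anti-CD3 antibody, which drives the arrested thymocytes of such mice to the next stage. Rag-KO + control had 2 libraries of thymic eosinophils collected on day 10 after hamster IgG, and they differed in genotype: replicate 1 came from Rag2-/- mice and replicate 2 from Rag1-/- mice. Mice lacking either Rag gene cannot rearrange antigen receptors and have no mature T or B cells. The mice were 8 to 10 weeks old, and the mice compared were sex-matched littermates. Whether the replicates of a group came from separate mice is not given in the sources used here, so the spread between them may be technical. Lung and thymus were digested with Liberase TM and DNase I, and spleens were mashed. Where the spleen is compared, the organ and its way of preparation therefore cannot be told apart.

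As background, lung capillaries form most of the gas exchange surface, and their endothelial cells are held together by Cldn5, Cdh5 and Esam and kept in the vascular state by Sox-family and Epas1 transcription factors and by the receptors Kdr, Tek, Tie1, Eng and Acvrl1. The epithelium that faces the air includes airway club cells, which secrete Scgb1a1, flat type I alveolar cells, which carry Ager, and type II alveolar cells, which make the surfactant proteins Sftpa1, Sftpb, Sftpc and Sftpd. Stromal fibroblasts and muscle lay down the collagens and the matrix proteins Sparc, Mgp, Dcn and Bgn. Endothelial promoters are typically served by ETS factors, and surfactant promoters by the homeobox factor NKX2-1.

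The promoters of 20 of the 40 members were in the RefSeq promoter table (GRCm38.p6, the build that mm10 names), with 23 windows of 300 bases each, reaching from 250 bases before a transcript start to 50 after it. The 5 printed here are an endothelial pair, an alveolar pair and a stromal gene, chosen to show the 3 classes beside each other. All 5 hold a match of the kinds below, and windows without a match are not printed. Capitals mark each match to CAGGAA, the core of an ETS site, to CTCAAG, part of an NKX2-1 site, or to TATAAA, the TATA box, on either strand, and each window is given on the strand of its gene.
Egfl7, middle of 3 starts, chr2:26583615-26583914, plus strand: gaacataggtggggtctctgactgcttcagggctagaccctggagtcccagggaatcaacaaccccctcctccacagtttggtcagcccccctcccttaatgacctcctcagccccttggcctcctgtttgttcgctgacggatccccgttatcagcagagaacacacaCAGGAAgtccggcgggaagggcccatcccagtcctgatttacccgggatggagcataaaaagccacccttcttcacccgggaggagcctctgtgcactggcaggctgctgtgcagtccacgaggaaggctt
Eng, chr2:32646345-32646644, plus strand: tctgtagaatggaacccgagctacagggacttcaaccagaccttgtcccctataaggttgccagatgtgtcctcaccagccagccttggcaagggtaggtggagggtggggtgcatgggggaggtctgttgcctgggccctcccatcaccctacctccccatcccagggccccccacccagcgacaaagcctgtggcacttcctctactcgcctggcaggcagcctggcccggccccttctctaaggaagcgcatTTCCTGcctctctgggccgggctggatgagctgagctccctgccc
Sftpa1, chr14:41131538-41131837, plus strand: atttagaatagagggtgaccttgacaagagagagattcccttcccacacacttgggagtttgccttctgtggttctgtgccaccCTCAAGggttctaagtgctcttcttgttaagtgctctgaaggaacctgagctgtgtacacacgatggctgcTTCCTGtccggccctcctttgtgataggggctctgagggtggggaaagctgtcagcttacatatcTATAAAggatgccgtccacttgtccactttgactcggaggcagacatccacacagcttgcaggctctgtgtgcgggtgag
Sftpb, chr6:72304360-72304659, plus strand: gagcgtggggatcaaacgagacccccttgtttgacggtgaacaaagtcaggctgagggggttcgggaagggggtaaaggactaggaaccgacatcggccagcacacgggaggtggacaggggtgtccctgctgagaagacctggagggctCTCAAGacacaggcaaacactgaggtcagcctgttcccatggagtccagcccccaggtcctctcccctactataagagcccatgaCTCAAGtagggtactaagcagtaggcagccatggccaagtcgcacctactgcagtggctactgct
Inmt, chr6:55174941-55175240, minus strand: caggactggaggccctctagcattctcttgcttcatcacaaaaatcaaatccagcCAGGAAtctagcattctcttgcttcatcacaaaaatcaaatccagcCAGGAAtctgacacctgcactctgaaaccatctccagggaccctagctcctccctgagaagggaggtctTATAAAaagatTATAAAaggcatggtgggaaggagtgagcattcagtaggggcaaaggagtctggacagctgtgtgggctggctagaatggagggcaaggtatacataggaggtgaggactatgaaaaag
CAGGAA stood in 7 of the 10 endothelial windows, 4 of the 8 epithelial windows and 2 of the 5 stromal windows, against 30.6% of all 32851 windows in the table. The endothelial windows without it were those of Kdr, Cldn5 and the last start of Egfl7, a gene counted at each of its starts. CTCAAG stood in 1 endothelial, 2 epithelial and 1 stromal window, against 15.9% of all windows, and Sftpb held it at 2 places. TATAAA stood in none of the endothelial windows, 2 epithelial and 2 stromal ones, against 13.6% of all windows. A match of 6 letters is a description of the window and not a binding site.

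Depth was alike across groups. The library totals behind the values, recovered from the values themselves, ran between 4765122 and 6431540 reads. All 10 listed markers of the sorted cell were above 0 in every library. Alox15, Ccr3 and Siglecf, which are a lipoxygenase, the eotaxin receptor and the sorted surface lectin, stood at or above 73.4 RPKM in all 13, while Epx, eosinophil peroxidase, was 0.271 to 0.708 RPKM in WT lung and 0.0780 RPKM in WT spleen replicate 3. WT spleen replicate 3 stood apart, with 22.0% of its RPKM in mitochondrial transcripts against 1.60% to 6.02% in the other 12 libraries. RPKM is a read count divided by the length of the transcript and the depth of the library, so levels of different genes can be set side by side.

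All 40 members were above 0 in at least 1 WT lung library, and 37 were above 0 in all 3. In contrast, 12 members had no read in any of the 6 WT thymus and WT spleen libraries: Plvap, Cldn5, Ramp2, Sox18, Sox7, Sox17, Scgb1a1, Scgb3a2, Sftpa1, Sftpb, Sftpc and Sftpd. Of these, 8 had none in the 4 Rag-KO libraries either. For 30 members all 3 WT lung libraries stood above each of the 6 libraries of the other WT organs, whereas 2.85% of the 16397 genes above 0 in any WT library had this order. The members were chosen with earlier results of these data known, so the contrast with that share is a description and not a test. By class, this held for 20 of 21 endothelial, 6 of 11 epithelial and 4 of 8 stromal members. The 10 members whose ranges overlapped were Pecam1, Sftpb, Epcam, Krt8, Krt18, Cldn18, Col1a2, Col3a1, Mgp and Dcn. In bulk RNA, more cells of a type and more RNA per cell cannot be told apart.

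**Figure D1:**
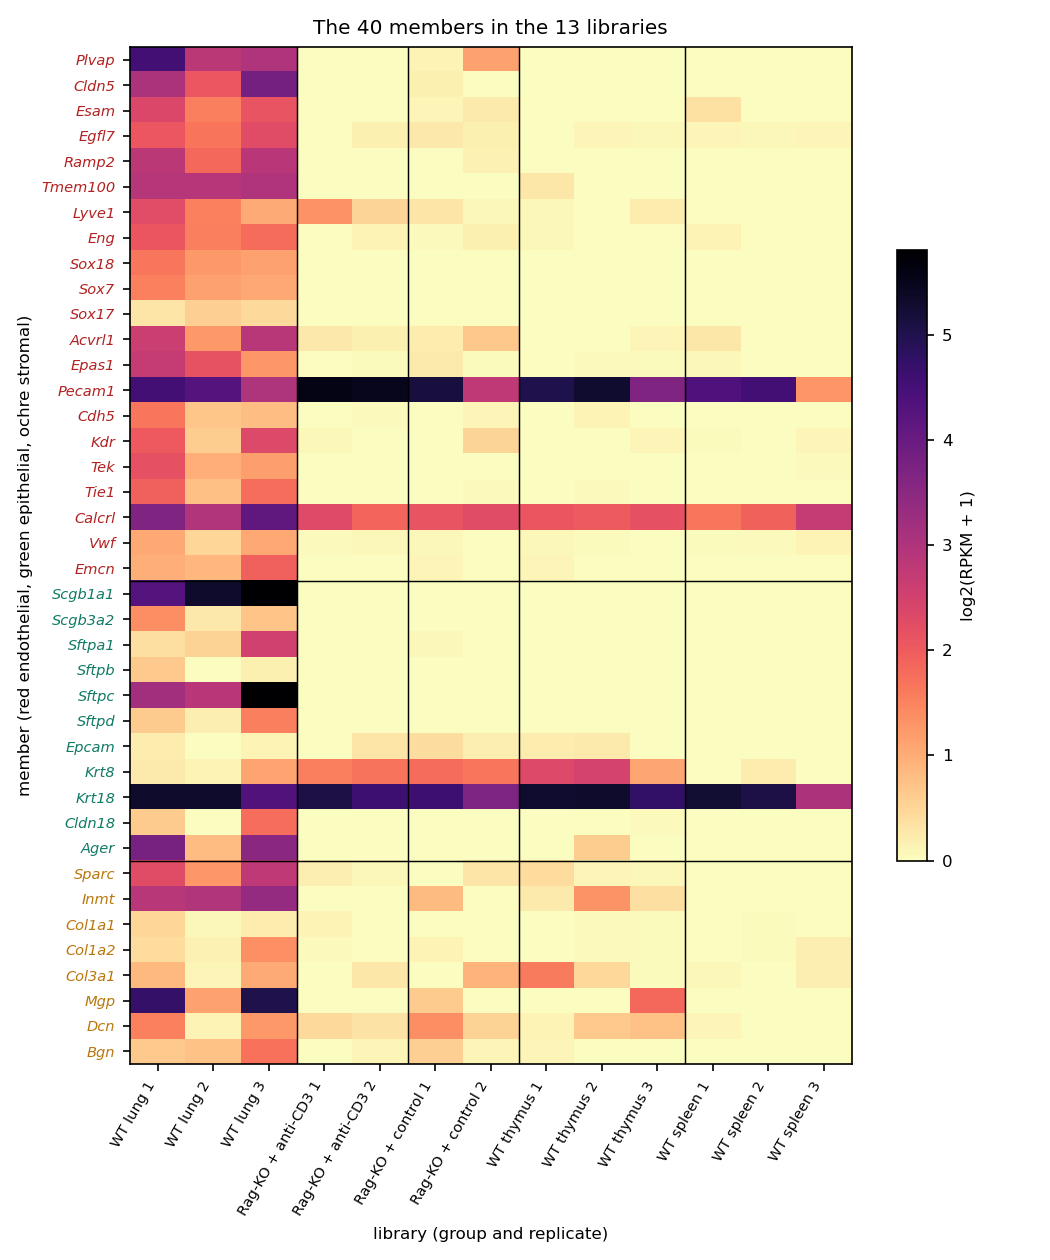
Level of each of the 40 members (rows, log2 of RPKM + 1 by colour) in each of the 13 libraries (columns, by group and replicate), with endothelial genes at the top, epithelial genes in the middle and stromal genes at the bottom. Most rows are dark only in the 3 WT lung columns. Pecam1, Calcrl and Krt18 are dark in all 5 groups, and Krt8 is darker in the thymus columns.

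Among the endothelial members, the highest of those seen in lung alone among the WT organs was Plvap, which builds the diaphragms of fenestrae and caveolae (chr8:71497765-71511752, minus strand). Plvap stood at 22.1, 6.06 and 6.85 RPKM in WT lung replicates 1, 2 and 3, and had no read in the WT thymus or WT spleen libraries. The 392 lung reads were at least 134-fold higher than WT thymus and at least 131-fold higher than WT spleen, with 3 reads over the reference group taken as the limit that 0 allows. Cldn5, the claudin of endothelial tight junctions (chr16:18776847-18778262, plus strand), stood at 7.21, 3.22 and 13.1 RPKM in WT lung and likewise had no read in either other WT organ. Ramp2, the partner that turns Calcrl into an adrenomedullin receptor, stood at 6.10, 2.56 and 6.21 RPKM in WT lung and at 0 in the other 6 WT libraries. Every lung library was above every other WT library for these 3 genes, while the lung libraries themselves differed by 2.43- to 4.06-fold between the highest and the lowest.

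Tmem100, a membrane protein induced by Acvrl1 signalling in endothelium (chr11:90030348-90036508, plus strand), was the steadiest member. It stood at 6.56, 6.40 and 6.85 RPKM in WT lung, from 67, 62 and 64 reads, against 0.208, 0 and 0 RPKM in WT thymus and 0 in all 3 WT spleen libraries. The highest lung library was only 1.07 times the lowest, with a 95% counting interval of 0.743 to 1.54 for replicate 3 over replicate 2. Counting intervals here cover counting error only, since amplified reads are not independent molecules. The receptors of that signalling branch were less even. Acvrl1, the receptor kinase, stood at 5.10, 1.37 and 6.28 RPKM in WT lung and at or below 0.214 RPKM in the other WT organs. Eng, its co-receptor, stood at 3.28, 1.95 and 2.44 RPKM in WT lung and at or below 0.0939 RPKM in the others. Epas1, a hypoxia-inducible factor abundant in lung vessels, ran in another order and stood at 5.43, 3.44 and 1.40 RPKM in WT lung, so its lowest lung library was replicate 3.

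The Sox factors of endothelium were low and seen in WT lung alone. Sox18 had 20, 12 and 10 reads in the 3 WT lung libraries, Sox7 had 36, 22 and 19, and Sox17 had 6, 12 and 8, and none of the 3 genes had a read in the other 10 libraries. Their levels were 1.17 to 2.14 RPKM for Sox18, 1.09 to 1.89 RPKM for Sox7 and 0.239 to 0.504 RPKM for Sox17 in WT lung. Sox17 was the only endothelial member whose highest lung library was replicate 2. The growth factor and angiopoietin receptors had the same outline with a low replicate 2. Kdr, the main VEGF receptor, stood at 3.07, 0.523 and 4.02 RPKM in WT lung. Tek, the angiopoietin receptor, and Tie1, its partner, stood at 3.53, 0.969 and 1.25 RPKM and at 2.81, 0.681 and 2.37 RPKM. None of these 3 receptors passed 0.0787 RPKM in WT thymus or WT spleen.

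Esam and Cdh5, both adhesion molecules of endothelial junctions, stood at 4.19, 1.95 and 3.38 RPKM and at 2.14, 0.607 and 0.719 RPKM in WT lung, against at most 0.272 RPKM in the other WT organs. Egfl7, which endothelial cells secrete, stood at 3.23, 2.15 and 3.88 RPKM in WT lung and had 1 read each in 5 of the 6 other WT libraries. Vwf, the clotting protein stored in endothelium and platelets, stood at 1.06, 0.391 and 1.08 RPKM in WT lung and at or below 0.0858 RPKM elsewhere among the WT libraries. Emcn, a mucin of capillaries and veins, was highest in replicate 3, at 0.936, 0.845 and 2.85 RPKM in WT lung. Lyve1, the hyaluronan receptor of lymphatic vessels and of some macrophages, stood at 3.77, 1.89 and 1.05 RPKM in WT lung and at or below 0.161 RPKM in the other WT organs.

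Pecam1 and Calcrl were the endothelial members that the other organs shared. Pecam1, an adhesion molecule that leukocytes and platelets carry as well as endothelium, stood at 22.1, 18.3 and 7.01 RPKM in WT lung, against 31.7, 38.0 and 11.7 RPKM in WT thymus and 19.5, 21.9 and 1.42 RPKM in WT spleen, so the ranges overlapped. In each WT organ its lowest library was replicate 3. Calcrl, the receptor for adrenomedullin and CGRP, stood at 11.6, 6.80 and 16.3 RPKM in WT lung, against 3.28, 3.02 and 3.57 RPKM in WT thymus and 2.10, 2.75 and 5.46 RPKM in WT spleen. All 3 lung libraries were above the other 6, and the limma test of that difference is given with the others below.

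The epithelial members differed in the order of the 3 lung libraries. Scgb1a1, the club cell secretoglobin (chr19:9083636-9087958, minus strand), was the highest member that other organs lacked, at 18.2, 39.1 and 54.8 RPKM in WT lung, and no read was found in the other 10 libraries. Its 290 lung reads were at least 99.0-fold higher than WT thymus and at least 97.1-fold higher than WT spleen on the same limit of 3 reads. Scgb3a2, a second airway secretoglobin, was much lower, with 8, 1 and 3 reads in WT lung and none elsewhere.

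Sftpc, the surfactant protein of type II alveolar cells (chr14:70520949-70524081, minus strand), was concentrated in one library. It stood at 8.09, 6.21 and 53.9 RPKM in WT lung, from 37, 27 and 226 reads, and had no read in the other 10 libraries. Replicate 3 was 8.68 times replicate 2, with a 95% counting interval of 5.81 to 13.5, and 6.67 times replicate 1, with an interval of 4.70 to 9.72. Sftpa1 and Sftpd, the collectins of surfactant, were highest in the same library, at 0.303, 0.446 and 4.76 RPKM and at 0.543, 0.143 and 1.93 RPKM. Sftpb, the small surfactant protein, had 5, 0 and 1 reads. Cldn18, the alveolar claudin, stood at 0.544, 0 and 2.38 RPKM in WT lung, and a count of 0 in replicate 2 allows up to 0.123 RPKM.

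Ager, the receptor that marks type I alveolar cells (chr17:34597862-34600936, plus strand), had a different order. It stood at 12.7, 0.734 and 10.4 RPKM in WT lung, against 0, 0.528 and 0 RPKM in WT thymus and 0 in WT spleen. Replicate 1 was 17.2 times replicate 2 (95% counting interval 7.67 to 48.0) and replicate 3 was 14.2 times replicate 2 (6.24 to 39.7). Scgb1a1 was thus lowest in replicate 1 and Ager in replicate 2, and Sftpc in replicates 1 and 2 differed by no more than counting error allows (ratio 1.30, interval 0.771 to 2.22). Scgb3a2 and Sftpb had too few reads to place their highest library, with a ratio of replicate 3 to replicate 1 of 0.409 (interval 0.0700 to 1.71) and 0.218 (0.00462 to 1.95).

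The 3 general epithelial genes did not mark the lung. Epcam, an adhesion molecule of most epithelia, had 2, 0 and 1 reads in WT lung and 2, 2 and 0 in WT thymus. Krt18, a keratin of simple epithelia, stood at 38.5, 38.6 and 18.9 RPKM in WT lung, against 38.4, 38.6 and 26.1 RPKM in WT thymus and 37.1, 32.7 and 7.16 RPKM in WT spleen, so its groups overlapped throughout. Krt8, its partner keratin, was high in thymus instead, as described below with the thymic libraries.

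Among the stromal members, Inmt was the most even. Inmt, a methyltransferase abundant in lung (chr6:55170626-55175043, minus strand), stood at 6.27, 6.77 and 9.30 RPKM in WT lung, against 0.171, 1.46 and 0.289 RPKM in WT thymus and 0 in WT spleen. Sparc, a secreted glycoprotein of fibroblasts and endothelium, stood at 3.82, 1.41 and 5.90 RPKM in WT lung, against 0.338, 0.0724 and 0.0571 RPKM in WT thymus and 0 in WT spleen. Both genes had every lung library above every other WT library.

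Mgp, the matrix Gla protein that inhibits calcification (chr6:136872435-136875823, minus strand), had the widest spread of the 37 members seen in all 3 lung libraries. It stood at 25.2, 1.18 and 31.6 RPKM in WT lung, from 90, 4 and 103 reads, against 0, 0 and 2.52 RPKM in WT thymus and 0 in WT spleen. Replicate 3 was 26.7 times replicate 2 (95% counting interval 10.1 to 99.8), and WT thymus replicate 3 was above WT lung replicate 2. The fibrillar collagens and small proteoglycans were low in lung. Col1a1 had 14, 2 and 5 reads in WT lung, Col1a2 had 11, 3 and 45, and Col3a1 had 26, 2 and 31, while WT thymus replicate 1 alone had 62 reads of Col3a1. Dcn stood at 1.89, 0.0867 and 1.35 RPKM in WT lung and Bgn at 0.572, 0.678 and 2.27 RPKM. For Bgn all 3 lung libraries were above the other WT libraries, whereas Dcn in WT lung replicate 2 rested on 1 read and overlapped WT thymus.

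Organs were compared in a limma fit of log2(RPKM + 1), made on the 9096 genes that reached 1 RPKM in at least 3 of the 9 WT libraries, with a call at an adjusted p under 0.05 and a fold above 2. Of the 40 members, 21 passed that filter. In WT lung over WT thymus 16 of the 21 were called higher and none lower, where 1.33% of all genes tested were called higher. In WT lung over WT spleen 16 were called higher and none lower, where 0.616% of all genes were. They were the same 16 genes, where 0.429% of all genes (39) were higher in lung than in both: Plvap, Cldn5, Esam, Egfl7, Ramp2, Tmem100, Lyve1, Eng, Sox18, Sox7, Acvrl1, Epas1, Scgb1a1, Sftpc, Sparc and Inmt. The median log2 difference of the 21 was 2.003 over WT thymus and 2.004 over WT spleen, against −0.20 and 0.07 over all genes. Since 15 of the 21 reached 1 RPKM in the lung libraries only, they could hardly pass the filter without differing, and the 2 comparisons share the lung libraries. The members had also been chosen with earlier results of these data known, so their counts beside the shares of all genes are a description.

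The size of the difference was largest for Scgb1a1, at 5.13 ± 0.36 on the log2 scale (SE, limma) against each of the other organs, with a limma adjusted p of 2.07e-04 over WT thymus and 2.02e-04 over WT spleen. Sftpc followed at 3.94 ± 0.63, with a limma adjusted p of 0.00857 over WT thymus and 0.0232 over WT spleen. Plvap differed by 3.44 ± 0.40 against both organs (limma adjusted p 0.00205 and 0.00525). Tmem100 had the smallest error, at 2.83 ± 0.20 over WT thymus and 2.93 ± 0.20 over WT spleen, and the same adjusted p as Scgb1a1. Inmt differed by 2.43 ± 0.31 over WT thymus and 3.06 ± 0.31 over WT spleen. The remaining called members lay between 1.25 for Sox7 and 2.98 for Cldn5. A difference on this scale understates the fold of a low gene, because 1 is added to each value. The error of a gene is shared by the 3 organs. Scgb1a1, Sftpc, Plvap, Cldn5, Ramp2, Sox7 and Sox18 had no spread in WT thymus and WT spleen, where all libraries were at 0. Their errors and adjusted p-values may therefore be too small for the spread between the lung libraries.

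Of the 5 members tested but not called, Mgp had a large difference with a large error, at 3.02 ± 0.92 over WT thymus (limma adjusted p 0.135) and 3.62 ± 0.92 over WT spleen (0.225). Calcrl differed by 1.48 ± 0.37 over WT thymus (limma adjusted p 0.0700) and 1.50 ± 0.37 over WT spleen (0.211). In the limma fit that blocks on replicate number, the adjusted p of Calcrl over WT thymus was 0.0234, which made it a call. Pecam1, Krt8 and Krt18 had limma adjusted p-values of 0.800, 0.0881 and 0.950 over WT thymus and 0.933 each over WT spleen. Krt8, at a log2 difference of −1.47, was called lower than WT thymus with all 13 libraries in the limma fit (adjusted p 0.0381), with Dunnett comparisons of RPKM (p 0.0418), with replicates 1 and 2 of each organ alone (limma adjusted p 0.000200), without WT thymus replicate 3 (0.0328) and without WT spleen replicate 3 (0.0492). The calls rest on few libraries. Leaving out WT thymus replicate 1, 2 or 3 left 9, 9 and 13 members higher than WT thymus and 9, 9 and 10 higher than WT spleen, and leaving out WT spleen replicate 1, 2 or 3 left 9, 8 and 15 higher than WT spleen. Calls over all genes moved too. Those higher than WT thymus went from 121 to 49, 52 and 72 without WT thymus replicate 1, 2 or 3. Those higher than WT spleen went from 56 to 22, 22 and 63 without WT spleen replicate 1, 2 or 3. Leaving out WT lung replicate 1, 2 or 3 left 1, 2 and 1 members higher than either organ, because 2 lung libraries cannot meet a filter of 3 on their own. The filter was then set at 2 libraries, an alternative added after seeing the data, which tested 22, 28 and 21 members. Of these, 8, 18 and 14 were higher than both organs without WT lung replicate 1, 2 or 3. Over all genes, 60, 125 and 108 were then called higher than WT thymus and 24, 80 and 43 higher than WT spleen.

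**Figure D2:**
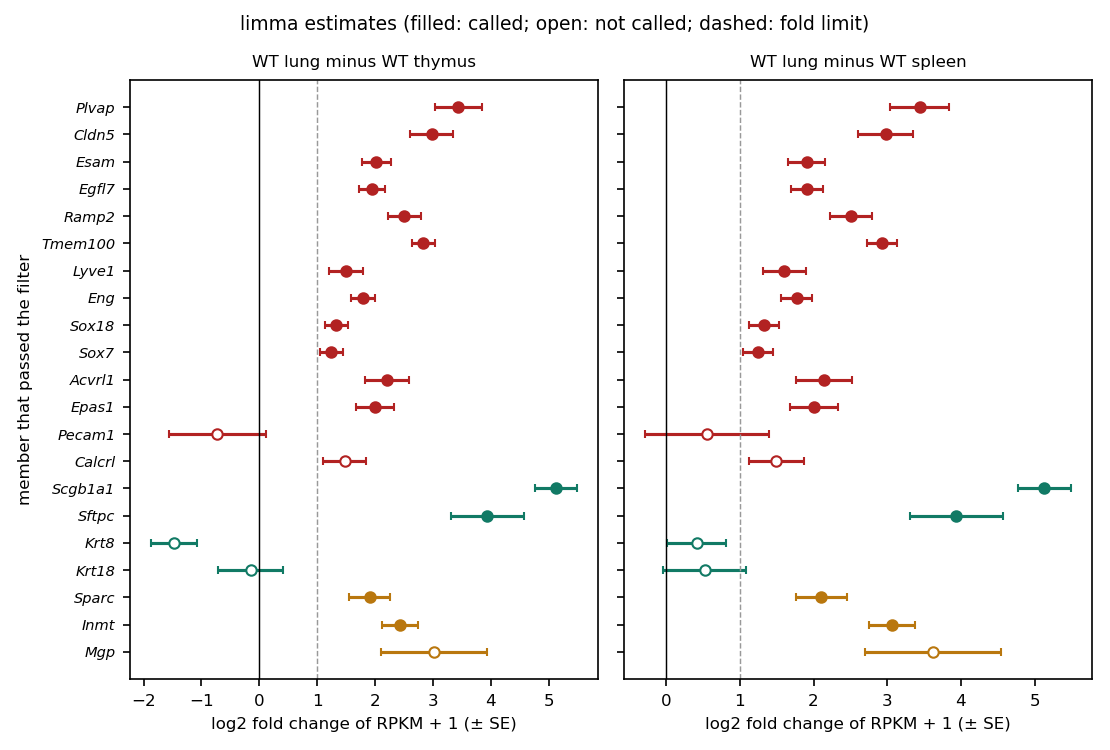
The log2 difference of RPKM + 1 (horizontal axis, with its standard error as the bar) for the 21 members that passed the filter, WT lung minus WT thymus on the left and WT lung minus WT spleen on the right. Filled points were called, open points were not, and red, green and ochre mark endothelial, epithelial and stromal genes. Scgb1a1 lies farthest right at 5.13 in both panels, and Krt8 lies at −1.47 over WT thymus.

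To read the classes per library, the RPKM of each class was summed without its highest member, since Pecam1 and Krt18 are shared by all organs and Mgp alone makes much of the stromal sum. The 20 endothelial members summed to 96.4, 44.9 and 82.6 RPKM in WT lung replicates 1, 2 and 3, against 3.29 to 3.97 RPKM in WT thymus and 2.85 to 5.74 RPKM in WT spleen. The 10 epithelial members summed to 42.8, 46.9 and 130.2 RPKM in WT lung, against 1.15 to 5.23 RPKM in WT thymus and 0 to 0.170 RPKM in WT spleen. The 7 stromal members summed to 14.1, 9.17 and 21.6 RPKM in WT lung, against 1.09 to 2.72 RPKM in WT thymus and 0.0580 to 0.303 RPKM in WT spleen. All 3 classes were therefore above the other WT organs in every lung library, and none came from a single lung library.

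The order of the lung libraries was not the same for the 3 classes. The endothelial sum was highest in replicate 1 and the epithelial and stromal sums in replicate 3. Replicate 2 had the lowest endothelial and stromal sums, but its epithelial sum was above that of replicate 1, which was 0.912 times replicate 2. Most of the epithelial sum of replicate 2 came from Scgb1a1, a short transcript. By share of reads, given below, replicate 2 was the lowest lung library for the epithelial members too. Counted over members, replicate 2 was the lowest lung library for 15 of 21 endothelial, 8 of 11 epithelial and 6 of 8 stromal genes. Replicate 3 was the highest for 9, 6 and 6 of them, and replicate 1 for 11, 4 and 2. These counts include members with few reads. Replicate 2 had no read of Sftpb, Epcam and Cldn18 and 1 read each of Scgb3a2, Sftpd, Krt8 and Dcn. Some of the orders counted here, such as that of Krt8 in replicates 1 and 2, lie within counting error. Between replicates 3 and 1, the endothelial sum had a ratio of 0.857, the epithelial sum 3.04 and the stromal sum 1.53, and with the highest members kept in, the ratios were 0.756, 1.83 and 1.35. The stromal sum of replicates 1 and 3 was 1.54 and 2.35 times that of replicate 2 without Mgp, and 3.80 and 5.13 times with it. After upper-quartile scaling the ratios of replicates 3 and 1 without the highest members were 0.851, 3.02 and 1.52.

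As a share of all reads in a library, these transcripts were rare. The 20 endothelial members took 0.0312% of the reads of WT lung replicate 1 (95% exact binomial interval 0.0298 to 0.0327), 0.0144% in replicate 2 (0.0134 to 0.0154) and 0.0274% in replicate 3 (0.0260 to 0.0288). The 10 epithelial members took 0.00409%, 0.00264% and 0.0114%, and the 7 stromal members 0.00313%, 0.00142% and 0.00497%. By this share replicate 2 was the lowest lung library in all 3 classes, while the order of replicates 1 and 3 still differed between classes. By reads the epithelial members were below the endothelial ones in all 3 libraries, whereas by summed RPKM they were above them in replicates 2 and 3, since RPKM divides by length and the Scgb1a1 and Sftpc transcripts are short.

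**Figure D3:**
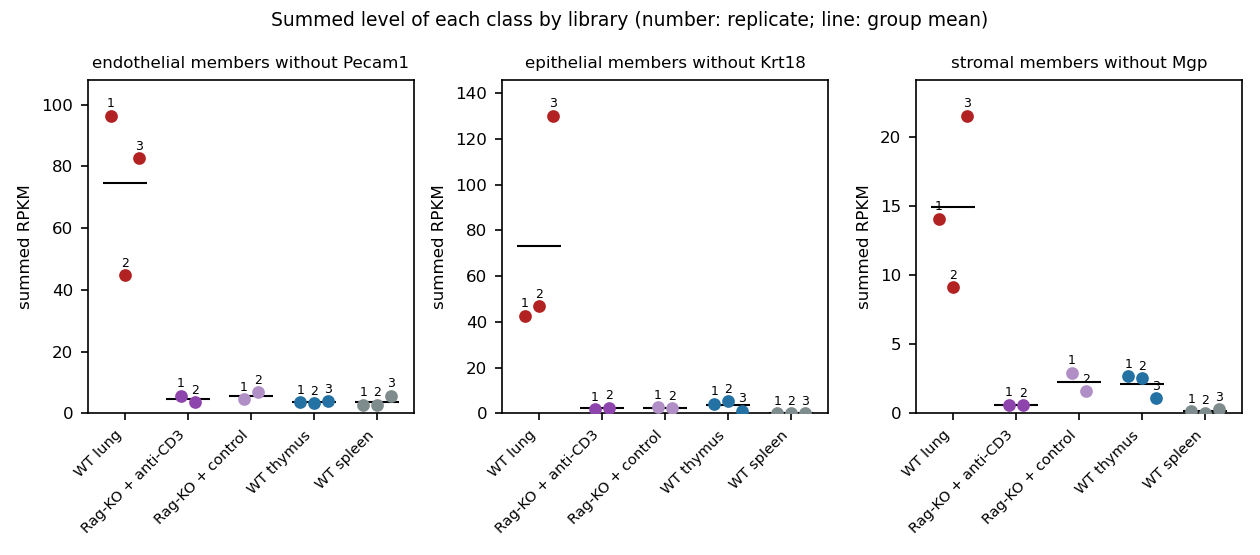
Summed RPKM of each class without its highest member (vertical axis, from 0) in each library, by group, with the replicate number above each point and a line at the group mean. The WT lung points lie above all others in the 3 panels. Replicate 2 is the lowest lung point for the endothelial (44.9) and stromal (9.17) panels, and replicate 3 the highest for the epithelial (130.2) panel.

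**Figure D4:**
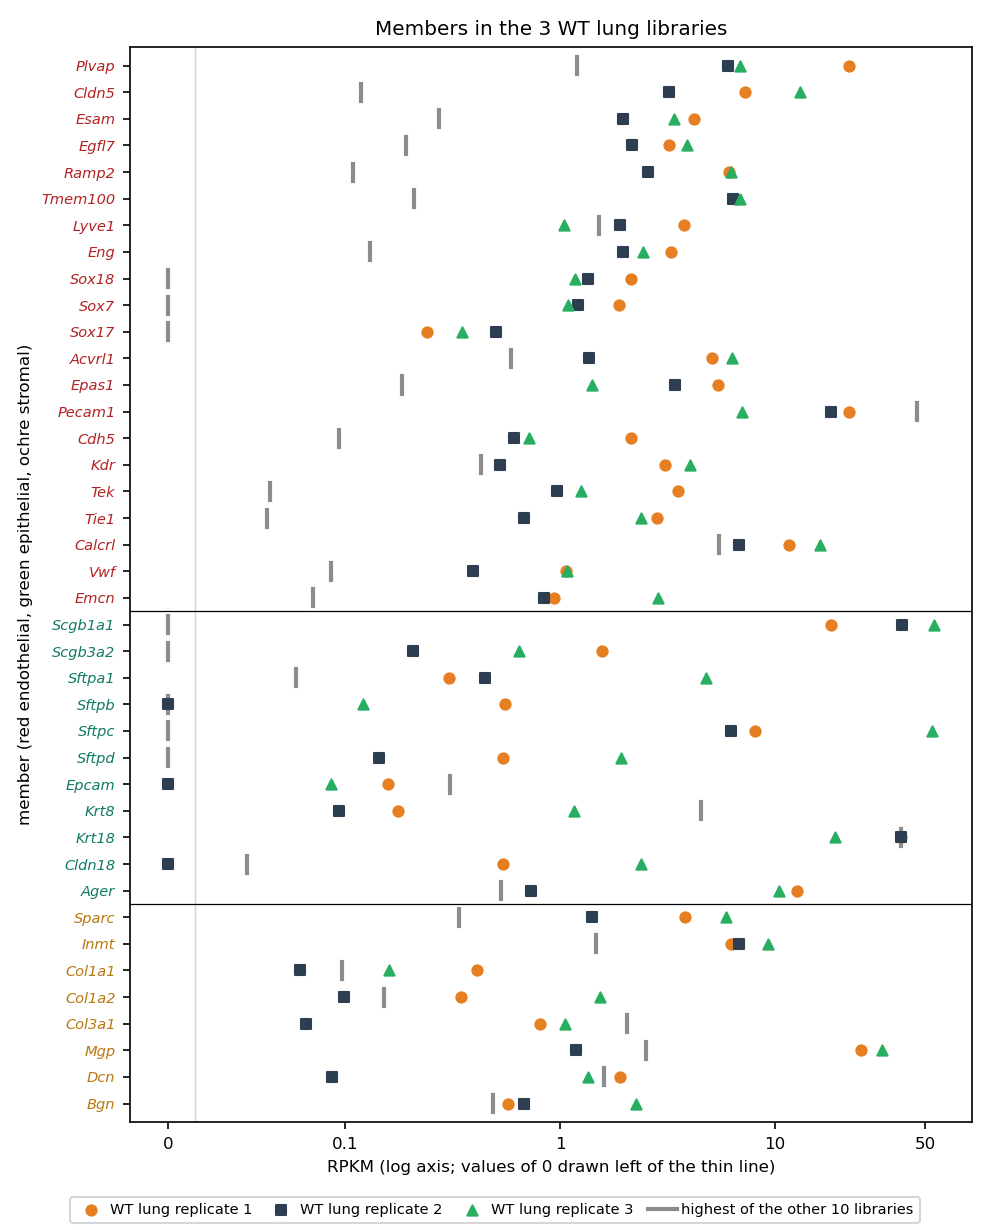
RPKM of each member in WT lung replicates 1 (circle), 2 (square) and 3 (triangle) on a log axis, with a grey bar at the highest value among the other 10 libraries. Squares lie left of the other marks for most genes. The 3 marks of Tmem100 nearly coincide at 6.40 to 6.85 RPKM, while those of Mgp span 1.18 to 31.6 RPKM.

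Markers of other lung and blood cells were read in the same libraries, and their part in the results was not tested. Of 11 alveolar macrophage genes, 5 to 10 were above 0 in a WT lung library. Chil3, a chitinase-like secreted protein, made most of that sum, at 149, 17.2 and 355 RPKM in WT lung, but it reached 395 RPKM in WT spleen replicate 3. Without Chil3 the alveolar macrophage genes summed to 22.6, 3.37 and 5.20 RPKM in WT lung replicates 1, 2 and 3. Fabp4, a fatty acid binding protein that other cells share, made 4.01 RPKM of the sum in replicate 3 and was 3.98 RPKM in WT spleen replicate 3, while Marco, Krt79, Plet1, Cidec and Ctsk were at 0 in WT lung replicate 3 and above 0 in replicates 1 and 2. The 7 red cell genes summed to 129 RPKM in WT lung replicate 1, 347 RPKM in replicate 2 and 370.2 RPKM in replicate 3, and Hba-a2 was 56.2, 142 and 132 RPKM there. Platelet genes other than Itgb3, an integrin that other cells share, summed to 3.48 to 10.4 RPKM in WT lung, against 0.974 to 2.51 RPKM in WT thymus and 2.42 to 33.9 RPKM in WT spleen. Of 5 mesothelial genes, Msln, Wt1 and Upk3b were at 0 in all 3 WT lung libraries, Muc16 was above 0 in replicate 1 alone, and Lrrn4 stood at 0.885, 0.785 and 0.407 RPKM, against 0.0990 to 0.544 RPKM in WT thymus and 0.715 to 0.829 RPKM in WT spleen. T cell genes summed to 0.850 to 0.964 RPKM in WT lung, against 12.7 to 46.2 RPKM in WT thymus and 0.998 to 3.57 RPKM in WT spleen. B cell genes summed to 4.41 to 9.85 RPKM in WT lung, against 6.12 to 9.59 RPKM in WT thymus and 13.7 to 49.8 RPKM in WT spleen.

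Between WT thymus and WT spleen, 1 of the 21 members tested was called, where 2.29% of all genes were. It was Krt8, the keratin of simple and thymic epithelia (chr15:101996698-102004482, minus strand), at 4.04, 4.53 and 1.11 RPKM in WT thymus, against 0, 0.170 and 0 RPKM in WT spleen, and the groups did not overlap. The log2 difference was 1.88 ± 0.40 (limma adjusted p 0.0417), and it was 0.0555 in the limma fit with the replicate number as a block, so the call ended there. Leaving out WT thymus replicate 1 or 2 or any of the 3 WT spleen libraries ended it too, with limma adjusted p-values of 0.0640 to 0.235, and without WT thymus replicate 3 it was 0.0211. WT lung was at 0.177, 0.0931 and 1.16 RPKM for Krt8, and replicate 3 overlapped WT thymus. Genes of thymic epithelium were also read in these libraries, and their part in the result was not tested. The 10 genes of that list summed to 4.51 to 25.3 RPKM in WT thymus, with 9 of 10 above 0 in each library, against 0.344 to 1.72 RPKM in WT spleen and 0.278 to 1.35 RPKM in WT lung. Ccl25 and Ccl21a, chemokines of thymic epithelium, stood at 0.811 to 2.77 RPKM and 1.07 to 12.9 RPKM in WT thymus.

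None of the 28 members tested over all 13 libraries was called in Rag-KO + control against WT thymus, where 1.09% of all 9763 genes were, or in Rag-KO + anti-CD3 against Rag-KO + control, where 0.133% were. At an unadjusted limma p under 0.05 the count was 0 in both. The share of all genes under that limit is not given here, so this count is a description. With limma's voom on recovered reads 0 members were called too, where 28 and 0 of all 9734 genes tested were called higher. The median log2 differences of the 28 members were 0.00 and −0.06, against 0.00 and −0.03 over all genes tested, and the 2 comparisons share the Rag-KO + control libraries. With 2 libraries in each Rag-KO group, only large changes could have been called.

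Single libraries of these groups held some members. Plvap was at 0 in both Rag-KO + anti-CD3 libraries and at 0.0847 and 1.20 RPKM in Rag-KO + control, where replicate 2, the Rag1-/- library, had 15 reads. The same library had 16 reads of Kdr, 15 of Acvrl1 and 31 of Col3a1, but none of Cldn5, Tmem100 or Tek. Lyve1 was at 1.51 and 0.424 RPKM in Rag-KO + anti-CD3, against 0.233 and 0.0547 RPKM in Rag-KO + control and 0.0636, 0 and 0.161 RPKM in WT thymus. Its log2 difference between Rag-KO + anti-CD3 and Rag-KO + control was 0.73 ± 0.37 and was not called (limma adjusted p 1). Krt8 stood at 1.94 and 2.23 RPKM in Rag-KO + anti-CD3 and at 2.41 and 2.10 RPKM in Rag-KO + control, within the WT thymus range. Without Krt18, the epithelial sum of these 4 libraries was therefore 1.94 to 2.77 RPKM, most of it Krt8.

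Further genes of the 3 cell classes were read as lists. Of 35 further endothelial genes, 16 were tested, 7 were higher in WT lung than in both other organs, and 1 was lower in WT lung than in WT thymus. Cav1, the coat protein of caveolae, stood at 9.69, 5.50 and 22.1 RPKM in WT lung, and in the other WT organs it was at 0 except for 1.04 RPKM in WT spleen replicate 3. Ly6c1 stood at 8.15, 2.61 and 6.76 RPKM, Tspan7 at 5.98, 2.09 and 7.35 RPKM, and Clec14a, a lectin of endothelium, at 4.20, 1.64 and 7.77 RPKM in WT lung. Ecscr, Gpihbp1 and Podxl averaged 1.91 to 2.02 RPKM there. Gpihbp1, the capillary anchor of lipoprotein lipase, was nearly even, at 2.31, 1.74 and 1.89 RPKM.

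Of 28 further epithelial genes, 6 were tested and 1 was higher in WT lung than in both other organs. It was Emp2, a membrane protein abundant in type I alveolar cells, at 6.29, 2.49 and 12.6 RPKM in WT lung and at or below 0.107 RPKM in the other WT organs. Of 34 further stromal genes, 3 were tested and 1 was called, Foxf1, a forkhead factor of lung mesenchyme that lung endothelium shares, at 5.16, 3.85 and 3.60 RPKM in WT lung. The median log2 difference of the tested genes over WT thymus was 1.86 for the endothelial list, 1.71 for the epithelial list and −0.07 for the stromal list. Among the 39 genes higher in WT lung than in both organs, 16 were members, 9 were on these lists and 14 were on no list. The members had been chosen with such results known, so this share is a description.

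Genes outside the set that ran most like each class were found by the Pearson correlation of log2(RPKM + 1) over the 13 libraries with the mean of the class, among 8523 genes. All 13 points share the contrast of 3 lung libraries with 10 others, so the values are high for any gene seen in lung alone. For the endothelial members the closest were Cdc42ep1 (0.99), Cavin2 (0.99), Aqp1 (0.99), Pllp (0.99), Gpihbp1 (0.99), Tspan7 (0.98), Foxf1 (0.98) and Podxl (0.98). Aqp1, the water channel of capillaries and red cells, stood at 10.1, 4.65 and 10.4 RPKM in WT lung and at or below 0.150 RPKM in the other WT organs. Cavin2, a coat protein of caveolae, stood at 7.31, 2.92 and 5.20 RPKM in WT lung.

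For the epithelial members the closest were Emp2 (0.98), Sema3c (0.98), Clec14a (0.98), Tspan7 (0.97), Arhgef15 (0.97), Cyp4b1 (0.97), Fmo2 (0.97) and Gja4 (0.96). For the stromal members they were Cyp4b1 (0.97), Clec14a (0.97), Emp2 (0.97), Tspan7 (0.97), Sema3c (0.96), Pllp (0.95), Arhgef15 (0.95) and Aqp1 (0.95). The epithelial and stromal lists shared Cyp4b1, Clec14a, Emp2, Tspan7, Sema3c and Arhgef15, which is 6 of 8 genes in each. Cyp4b1, a cytochrome P450 abundant in lung, stood at 16.6, 2.58 and 22.2 RPKM in WT lung, with the low replicate 2 that Ager and Mgp showed. Gja4, a connexin of arterial endothelium, stood at 1.44, 1.51 and 6.28 RPKM there, with the high replicate 3 that Sftpc showed.

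Some members share their place in the genome with other genes. In the GENCODE vM21 annotation 12 members overlap another annotated gene, and 4 overlap a protein-coding one: Plvap with Gtpbp3, Egfl7 with Agpat2 and a second gene model, Ramp2 with Vps25, and Eng with Fpgs. Whether the reads were counted by strand is not given in the sources used here, so reads in these overlaps could belong to either gene. For all 4, the other WT organs were at or below 0.0939 RPKM.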

How the data were processed

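The authors sorted CD11b+ Siglec-F+ cells, made libraries with SMART-seq v4, sequenced them on an Ion Proton and mapped them to mm10 in CLC Genomics Workbench v.12. The deposited table holds RPKM per gene for 13 libraries, which the authors had normalized by gene length and library depth. Mapping and counting settings, the annotation and the use of strand are not given in the sources used here. The study tested RPKM with Dunnett comparisons.

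Groups came from the sample labels. The 40 members and all gene lists were chosen with earlier results of these data known. Library totals and whole reads per gene were recovered from the RPKM, because every value must be a whole number of reads for 1 length and 1 total. With a tolerance of 0.001, 5888 of the 17067 genes above 0 gave whole reads with their GENCODE vM21 exon length, 11150 gave them with a length found from the values, and 29 gave none. Totals of 4765122 to 6431540 reads make 1 read of Plvap worth at least 0.0783 RPKM in WT thymus and WT spleen libraries.

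limma 3.58.1 in R 4.3.3 was fitted to log2(RPKM + 1) with an intensity trend, over 9 WT libraries for organs (9096 genes at 1 RPKM or more in at least 3 libraries) and over all 13 for the Rag-KO groups (9763 genes, in at least 2). P-values were adjusted over all genes tested by Benjamini-Hochberg, with calls at an adjusted p under 0.05 and a fold above 2. The script was tested on simulated data. Intervals on read ratios and shares are exact binomial at 95% and cover counting error only.

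Replicate numbers in the labels were checked for pairing. Deviations from the group means correlated at 0.31 to 0.58 in all 9 pairs of WT libraries with the same number. In the 18 pairs with different numbers they correlated at −0.54 to 0.42. All negative values, −0.54 to −0.32, were between replicate 3 of an organ and replicate 1 or 2 of another. Replicates 1 and 2 of different organs correlated at 0.26 to 0.42, near their same-number pairs at 0.31 to 0.51. The pattern thus mainly set replicate 3 apart, and any pairing of replicates 1 and 2 was weak. No label names a shared mouse or day, and the numbers served as a block in an alternative fit only.

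All 40 members are named. Of the further lists, genes called higher in WT lung than in both other organs are named, up to 8 a list, and of the other-cell lists up to 3 genes by WT lung level, with those singled out as at 0 named after their values were seen. For each class the 8 most correlated other genes are named. Alternatives were other pseudocounts, filters, scalings and fits, voom on recovered reads, Dunnett comparisons, a replicate block, and leaving out each library. A fit with no filter and voom, one with replicates 1 and 2 alone, and the leave-outs with a filter of 2 libraries were added after seeing the data.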

Additional observations from a re-analysis of the deposited data

How the results depend on the processing

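No member called between organs changed direction under any alternative. For Plvap, Cldn5, Ramp2, Sox18, Sox7, Scgb1a1 and Sftpc, at 0 in every WT thymus and WT spleen library, the direction could hardly have changed. Most other called members were near 0 in those organs, so the steady direction is no support for the calls. The counts of members higher in WT lung stayed within 1.5 times 16 under other pseudocounts, filters, scalings, the fit without a trend or fold limit, all 13 libraries, Dunnett comparisons and voom on recovered reads. With the replicate block they were 17 over WT thymus, 16 over WT spleen and 16 over both, and apart from Calcrl over WT thymus and Krt8 between WT thymus and WT spleen the block changed no call of a member. With no filter and voom, which fits all 40 members, they were 28, 26 and 25, and with replicates 1 and 2 of each organ alone they were 18, 17 and 17. Calls over all genes rose in these fits as well. Those higher than WT thymus went from 121 to 289 with no filter and voom and to 312 with replicates 1 and 2 alone. Those higher than WT spleen went from 56 to 202 and 133. With the replicate block, calls over all genes were 190 over WT thymus and 70 over WT spleen. With all 13 libraries in the fit they were 185 and 85. Leaving out 1 library of either organ compared gave 1 to 13 members over WT thymus, 1 to 15 over WT spleen and 0 to 1 between WT thymus and WT spleen, and leaving out any WT library gave 1 to 15 over both. Leaving out a WT spleen library gave 16 to 17 over WT thymus, and leaving out a WT thymus library gave 9 to 10 over WT spleen. Krt8 became a call lower in WT lung than WT thymus in 5 alternatives. With the filter set at 2 libraries, leaving out a WT lung library gave 12 to 21, 8 to 18 and 8 to 18. Calls over all genes then ran from 60 to 125 over WT thymus and from 24 to 80 over WT spleen. Outside the Dunnett comparisons, Plvap, Cldn5, Egfl7, Ramp2, Tmem100, Eng, Scgb1a1 and Inmt kept both calls in each alternative that tested them. The Dunnett result was not followed gene by gene where a member was at 0 in the whole reference organ, as for Plvap, so no statement is made on it. Acvrl1, Lyve1, Epas1, Esam, Sox7, Sox18, Sftpc and Sparc lost at least 1 call in some alternatives.

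The single call between WT thymus and WT spleen, Krt8, was lost, leaving 0 members, with no filter, under quantile normalization, with voom and with the replicate block, and the cause was not tested. The Rag-KO comparisons gave 0 members under each alternative.

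Class means without the highest member were moved by its removal. The endothelial mean was 3.66 RPKM in WT thymus, 3.82 in WT spleen, 4.63 in Rag-KO + anti-CD3 and 5.67 in Rag-KO + control without Pecam1, against 30.8, 18.1, 49.2 and 25.5 RPKM with it. The epithelial mean was 3.53 RPKM in WT thymus, 0.0565 in WT spleen, 2.21 in Rag-KO + anti-CD3 and 2.51 in Rag-KO + control without Krt18, against 37.9, 25.7, 30.2 and 20.2 RPKM with it. The stromal mean was 14.95 RPKM in WT lung and 2.12 RPKM in WT thymus without Mgp, against 34.3 and 2.96 RPKM with it, and that of Rag-KO + anti-CD3 was 0.579 RPKM after upper-quartile scaling and 0.619 before it. At these depths a member with 0 reads in a library can still have up to 3 there. Low members such as Sftpb and Epcam therefore could not be ranked between libraries. The collagens could be ranked in part, by counting error only. In WT lung replicate 3 over replicate 2, the ratio was 15.6 for Col1a2 (counting interval 4.99 to 78.2) and 16.1 for Col3a1 (4.09 to 139). Col3a1 in replicate 3 over replicate 1 stayed within counting error (ratio 1.30, interval 0.748 to 2.28).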
